A study of Mus musculus with 2 samples.

Results

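The 4 Hox clusters hold the homeobox genes that give cells along the head-to-tail axis their position, and they were examined here for the binding of ISL1, a LIM-homeodomain transcription factor that acts in newborn ganglion cells, in the embryonic mouse retina. The intervals described are all those that overlap HoxA, HoxB, HoxC or HoxD, each taken from the first to the last of 38 listed Hox genes with 50 kb added on both sides. They were selected by position alone, in mm10, and number 97 of 282804 intervals, with 48 of 123923 in replicate 1 and 49 of 158881 in replicate 2. CUT&Tag, which cuts and tags DNA beside an antibody-bound protein with a tethered transposase, was run against ISL1 in 2 samples of whole wild type retina at E13.5. Both samples belong to 1 group, so no comparison between conditions was possible. The labels do not say whether they came from separate animals or litters, and name 2 ISL1 antibodies without saying which sample received which. Signal from a control antibody or from retina without ISL1 was not analysed here, and no RNA was measured.

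Hox genes lie in 4 clusters in which the order of the genes follows the order in which they are expressed from head to tail. The genes of paralogue groups 1 to 3 pattern the hindbrain, those of groups 4 to 8 the neck and trunk, and those of groups 9 to 13 the lower trunk, limbs and tail. The retina arises from the forebrain, in front of the domains where Hox genes are expressed, and in such tissue the clusters are typically held silent by Polycomb proteins. Hox proteins bind DNA at sites with a TAAT core, as do LIM-homeodomain factors, and often do so with TALE cofactors of the Meis and Pbx families.

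In short, ISL1 intervals were about as dense over the Hox clusters as elsewhere in the genome, and 4 of them recurred in both replicates (8.33% of replicate 1 and 8.16% of replicate 2, against 11.5% and 8.91% of the whole lists). An interval overlapped 1 of 24 Hox promoter windows, against 24.1% of all promoter windows. HoxA had the most intervals per length and HoxC the fewest. Within 1 kb of a start site, or of either gene end for 16 genes with no start site in the promoter table, 14 of 38 Hox genes had an interval in at least 1 replicate, against 51.8% of protein-coding genes. Of these 14, 6 were read at gene ends. In both replicates 2 genes had one, against 16.9%: Hoxa10, at different start sites, and Hoxb5, at opposite gene ends.

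Promoter sequences were taken from RefSeq (GRCm38.p6, the assembly of mm10), which held 24 windows for 22 of the 38 genes. Each runs from 250 bases before to 50 bases after a start site. The promoters shown are that of Hoxa9, the only one an interval overlapped, the pair of Hoxa10 promoters, the only gene with a start site in the table and intervals near it in both replicates, and that of Hoxa5, which has the longer motif CTAATG at 2 places and had no interval within 5 kb. All lie on the minus strand and are written 5′ to 3′ along it, with TAAT or its complement ATTA in capitals.
Hoxa9, chr6:52227321-52227620: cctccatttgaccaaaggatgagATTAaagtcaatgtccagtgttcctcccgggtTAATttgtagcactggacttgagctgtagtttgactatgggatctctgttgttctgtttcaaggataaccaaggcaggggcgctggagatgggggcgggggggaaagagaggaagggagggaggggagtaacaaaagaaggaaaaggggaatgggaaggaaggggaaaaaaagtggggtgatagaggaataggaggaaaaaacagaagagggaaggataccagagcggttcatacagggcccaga
Hoxa10, upstream start, chr6:52240805-52241104: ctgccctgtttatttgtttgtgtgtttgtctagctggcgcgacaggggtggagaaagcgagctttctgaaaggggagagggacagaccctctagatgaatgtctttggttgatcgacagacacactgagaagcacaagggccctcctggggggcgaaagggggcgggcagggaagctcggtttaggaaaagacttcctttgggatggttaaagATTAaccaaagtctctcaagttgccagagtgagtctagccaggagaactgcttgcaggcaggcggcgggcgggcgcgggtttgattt
Hoxa10, downstream start, chr6:52234890-52235189: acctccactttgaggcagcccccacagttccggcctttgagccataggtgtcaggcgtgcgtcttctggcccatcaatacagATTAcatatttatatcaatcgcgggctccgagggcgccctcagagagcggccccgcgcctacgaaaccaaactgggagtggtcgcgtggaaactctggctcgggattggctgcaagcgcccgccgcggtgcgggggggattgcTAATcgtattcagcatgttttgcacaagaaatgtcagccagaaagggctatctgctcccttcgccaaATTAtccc
Hoxa5, chr6:52204538-52204837: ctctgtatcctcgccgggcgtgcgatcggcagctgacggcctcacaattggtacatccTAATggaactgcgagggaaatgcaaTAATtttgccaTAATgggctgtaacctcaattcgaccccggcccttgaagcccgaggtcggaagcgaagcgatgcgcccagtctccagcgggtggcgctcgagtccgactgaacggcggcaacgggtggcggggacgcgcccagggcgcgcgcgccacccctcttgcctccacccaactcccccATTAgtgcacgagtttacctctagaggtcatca

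The interval on the Hoxa9 promoter, at chr6:52227252-52227426, was listed in replicate 2 only, with a maximum signal of 15. Signal here is the authors' read coverage, and the maximum is the highest coverage within the interval. It covered positions 195 to 300 of the window as printed, counted from 1 at the 5′ end, which includes the start site and neither of the capitalised runs. By total signal, which is coverage summed over the bases of an interval, it stood at percentile 49.1 of its list. Of all 24 Hox windows, this was the 1 overlapped by an interval in either replicate (4.17%, 95% Wilson interval 0.739 to 20.2). Over all 32851 promoter windows of the table, of any gene type, the share was 24.1%. All intervals of this kind describe counting error alone: whether PCR copies of a fragment were removed is not known, and neighbouring Hox promoters are not independent of each other.

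Hox promoters are rich in CpG, the dinucleotide that is methylated in most of the genome and spared in CpG islands. Their median GC content was 57.7% against 52.7% over all windows. Their median ratio of observed to expected CpG was 0.626 against 0.384. Of the 12 Hox windows with a ratio of 0.6 or more, 0 were overlapped in either replicate, which allows a share of up to 25.0%. Of all 11765 windows with such a ratio 45.1% were overlapped. The line of 0.6 was chosen after the values were seen, and the difference was not tested. Hoxa13, a gene of limb and tail development, had 45 CpG and a GC content of 81.0% in its window, the highest of the members, and no interval on it.

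The letters TAAT were present on either strand in 19 of the 24 Hox windows (79.2%) and in 58.0% of all windows. The palindrome TAATTA, which contains TAAT, was present in 2 Hox windows (8.33% against 5.29% of all). CTAATG, which also contains TAAT, was present in 2, those of Hoxa5 and Hoxb1 (8.33% against 7.36%). The Hox-Pbx type motif TGATTNAT was present in 2, those of Hoxa2 and Hoxd11 (8.33% against 3.22%). These are matches of letters on both strands and not binding sites.

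Over the 885 kb of the 4 regions, interval density was near that of the rest of the genome. Replicate 1 had 5.42 intervals per 100 kb (exact 95% Poisson interval 4.00 to 7.19) against 4.55 outside the regions, and replicate 2 had 5.54 (4.10 to 7.32) against 5.84. Set against the rest of the genome, the density was 1.19 times as high in replicate 1 and 0.949 times in replicate 2, a mean of 1.07 ± 0.17 (SD, n = 2). The replicates thus lay on opposite sides of equality, and both genome values fell within the counting intervals. Intervals covered 1.91% ± 0.22 (SD, n = 2) of the Hox bases and 1.77% ± 0.33 of the rest. By total signal, 29 of the 48 Hox intervals of replicate 1 and 33 of the 49 of replicate 2 were above the median of their list, and in this stronger 50% of the lists the density ratio was 1.36.

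**Figure D1:**
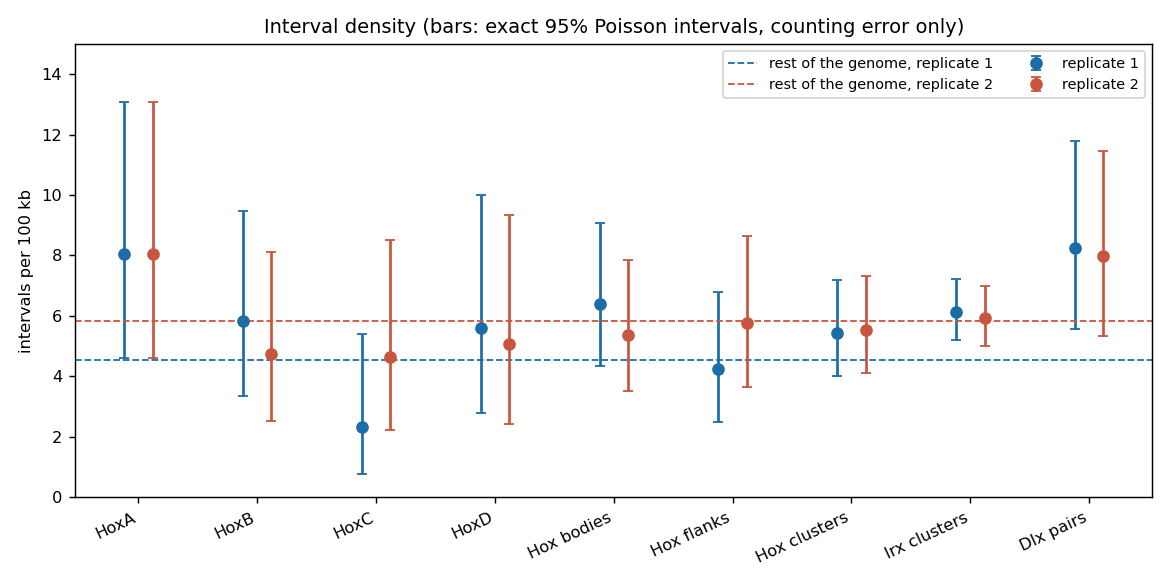
Intervals per 100 kb (vertical axis) in each Hox cluster, in the bodies and flanks of the clusters together, in all Hox regions, and in the Irx and Dlx regions, with 1 point per replicate. Bars are exact 95% Poisson intervals for counting error, and dashed lines give each replicate's density in the rest of the genome. HoxA is highest of the 4 clusters at 8.06 in both replicates, and HoxC is lowest at 2.32 and 4.64.

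The clusters differed in how many intervals they held, although their counting intervals overlapped. HoxA, at chr6:52112417-52310880 with its flanks, had 16 intervals in each replicate, or 8.06 per 100 kb (4.61 to 13.1), against 4.49 and 5.77 on the rest of its chromosome in replicates 1 and 2. HoxB, at chr11:96144316-96418254, had 16 and 13, or 5.84 (3.34 to 9.48) and 4.75 (2.53 to 8.12) per 100 kb, against 5.16 and 6.01. HoxC, at chr15:102871131-103086856, had 5 and 10, or 2.32 (0.753 to 5.41) and 4.64 (2.22 to 8.52), against 4.28 and 5.55. HoxD, at chr2:74618225-74815142, had 11 and 10, or 5.59 (2.79 to 10.0) and 5.08 (2.44 to 9.34), against 4.77 and 5.88. HoxA was above the rest of its chromosome in both replicates, HoxC below it in both, and HoxB and HoxD above in replicate 1 and below in replicate 2. Between the first and the last gene the 2 replicates together held 57 intervals and the flanks 40. Over the 4 clusters the bodies were denser than the flanks by a factor of 1.5 in replicate 1 and 0.932 in replicate 2. The mean was 1.22 ± 0.40 (SD, n = 2), so no direction held in both for the clusters as a whole. The HoxA body was denser than its flanks in both replicates, at 12.2 against 4 and 10.2 against 6 per 100 kb. Its counting intervals for body and flanks overlapped in each replicate. The direction reversed between replicates in HoxB, at 6.90 against 4 and then 2.30 against 9. In HoxC it went from 1.73 against 3 to 6.05 against 3, and in HoxD from 5.16 against 6 to 5.16 against 5.

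**Figure D2:**
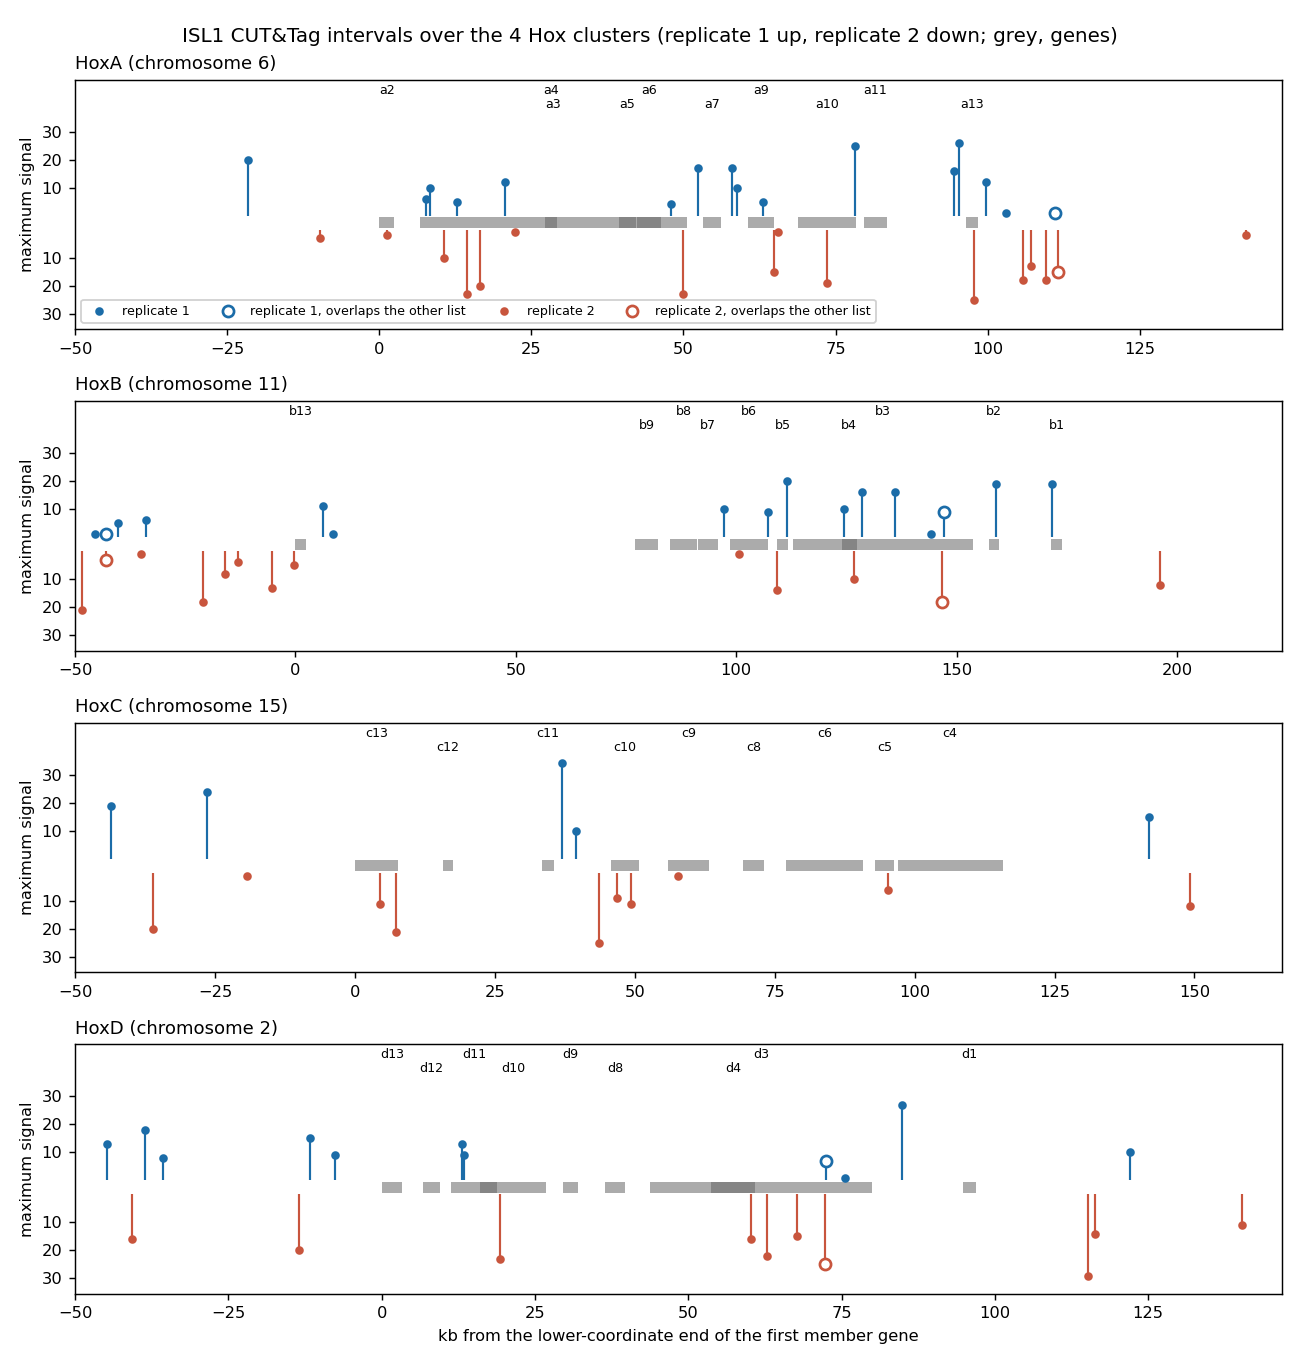
Maximum signal (vertical axis, coverage) of every interval over the 4 clusters and their 50 kb flanks, against distance in kb from the first gene, with replicate 1 drawn upwards and replicate 2 downwards. Grey boxes are member genes, labelled without the Hox prefix, and open circles are intervals that overlap the other replicate's list. The 97 intervals are spread over bodies and flanks, 4 pairs carry open circles, and the longest empty stretch, of 88.4 kb, lies in HoxB.

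Long stretches of the clusters held no interval in either replicate. Of the 2 longest between neighbouring intervals in each cluster, those that contain whole Hox genes are given. Stretches between the outermost intervals and the edges of a region were not measured. The longest ran for 88.4 kb in HoxB, at chr11:96202862-96291217, and contained the whole of Hoxb9, Hoxb8 and Hoxb7. In HoxC a stretch of 46 kb contained Hoxc4 and one of 37.3 kb contained Hoxc8 and Hoxc6. In HoxD a stretch of 40.6 kb contained Hoxd9 and Hoxd8, and one of 30.0 kb contained Hoxd1. In HoxA a stretch of 25.4 kb contained Hoxa4, Hoxa5 and Hoxa6. Empty stretches were not measured elsewhere in the genome, so whether these are longer than usual is not known.

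Coverage within the Hox intervals was mostly flat, meaning that every base had the same coverage. Of 97 intervals 76 were exactly flat, with 38 in each replicate (79.2% of replicate 1 and 77.6% of replicate 2), against 82% and 83.3% over the whole lists. Uneven coverage was defined as a total signal below 95% of width times maximum. It was found in 0 of 48 Hox intervals of replicate 1 (Wilson interval 0 to 7.41%), where 6.01% of the whole list was uneven. In replicate 2 it was found in 3 of 49 (6.12%, Wilson interval 2.10 to 16.5), where 5.79% of the list was uneven. The uneven interval nearest to the line, over Hoxb3, stood at 93.2% of that product, and the next interval beyond it, over Hoxb4, at 99.8%. The other uneven intervals were in flanks, with maximum signals of 2 beyond Hoxa13 and 3 beyond Hoxb13.

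Signal in the Hox regions was moderate. The maximum signal had a lowest value of 1, a median of 10 and a highest of 34 in replicate 1, where the whole list had a median of 11 and a highest of 9721. In replicate 2 these were 1, 14 and 29, against 9 and 13741. Only 1 of 97 intervals had a maximum above 30, at percentile 98.2 of its list by maximum. By total signal 0 Hox intervals were above percentile 99, which only 1240 of 123923 and 1588 of 158881 intervals of the lists passed. So few Hox intervals cannot show a difference from those shares. Above percentile 90 were 5 of 48 in replicate 1 and 9 of 49 in replicate 2, and the median percentiles were 61.1 and 66.5. A maximum of 1 was found in 7 Hox intervals of replicate 1 (14.6%, against 21.3% of the list) and in 6 of replicate 2 (12.2%, against 24.7%).

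The overlap between replicates within the Hox regions was of similar size to that of the whole lists. Of the 48 intervals of replicate 1, 4 overlapped replicate 2 by at least 1 bp (8.33%, Wilson interval 3.29 to 19.6), against 11.5% of the list. Of the 49 intervals of replicate 2, 4 overlapped replicate 1 (8.16%, 3.22 to 19.2), against 8.91%. The pairs formed 4 shared peaks, and 2 of these included an interval with a maximum signal of 1. The pair that came closest without overlapping was 850 bp apart, within Ttll6 in the flank of HoxB, with its nearer interval 33838 bp from Hoxb13. Of the 38 genes, 3 were the nearest protein-coding gene to a shared peak within 50 kb (7.89%), against 27.3% of 21887 protein-coding genes. A gene's spacing from its neighbours bears on this count, and its part in the difference was not tested.

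The shared peak with the largest overlap lay inside Hoxd3, a gene of hindbrain and neck patterning, at chr2:74740322-74740928. Its interval in replicate 1 was 607 bp wide with a maximum of 7, and that of replicate 2 was 386 bp wide with a maximum of 25 and lay wholly within it. They stood at percentiles 64.5 and 97.5 of their lists by total signal. Its midpoint was 7646 bp from the nearest end of Hoxd3. Both intervals were flat, so the replicate 2 interval had the same coverage at every base.

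A second shared peak lay inside Hoxb3, a gene of the same paralogue group, at chr11:96340778-96341695. The interval of replicate 1 had a maximum of 9 and that of replicate 2 a maximum of 18 with uneven coverage, at percentiles 75.5 and 91.1. They overlapped by 89 bp, at the right edge of one and the left edge of the other, and their midpoints were 414 bp apart. The midpoint of the union was 6694 bp from the nearest end of Hoxb3. RefSeq gives Hoxb3 a span of 40830 bp that also contains Hoxb4.

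The remaining shared peaks lay in flanks and were weaker in 1 or both replicates. The one beyond Hoxa13, at chr6:52273431-52274188, joined an interval of maximum 1 in replicate 1 with one of maximum 15 in replicate 2 through an overlap of 9 bp, and it overlapped no RefSeq gene. The one beyond Hoxb13, at chr11:96151257-96151372, had maxima of 1 and 3 and lay within Ttll6, a gene for a tubulin-modifying enzyme. With a reciprocal overlap of 50% required, 2 shared peaks were counted, those inside Hoxd3 and within Ttll6, and the one inside Hoxb3 did not pass. With a maximum of 5 or more required, those inside Hoxb3 and Hoxd3 were the pairs whose signals passed in both replicates.

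**Figure D3:**
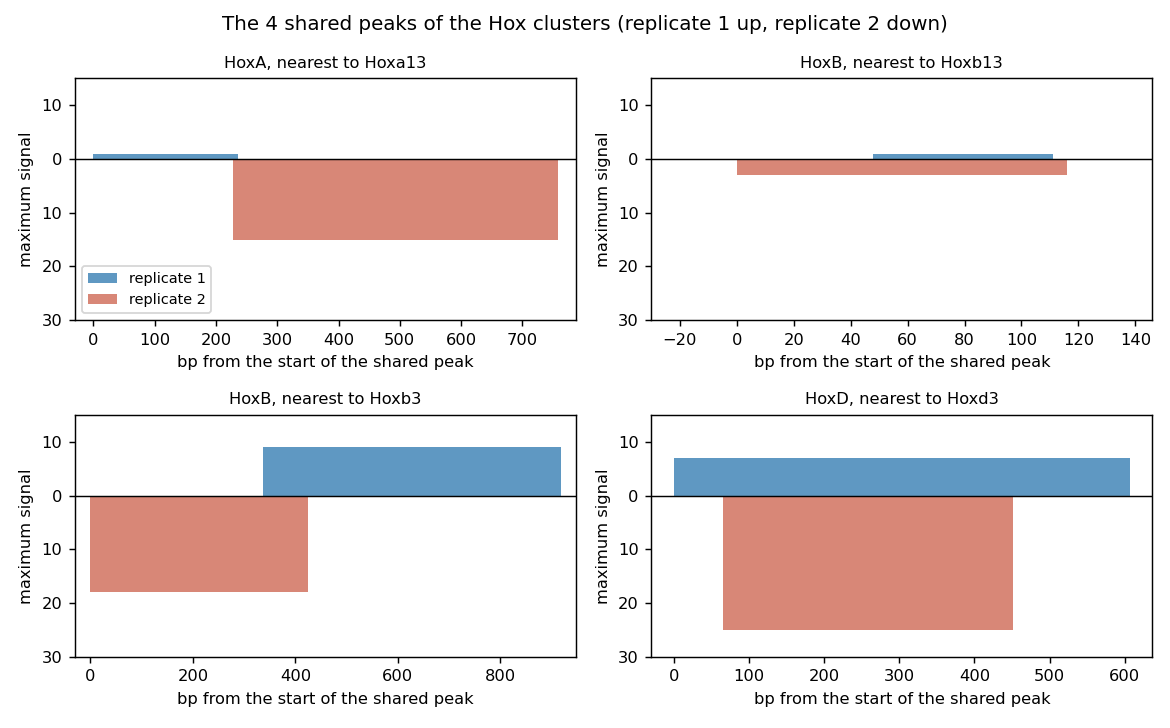
The 4 shared peaks, with position in bp from the start of each peak on the horizontal axis and maximum signal (coverage) on the vertical axis. Bars span the interval of replicate 1 (upwards) and of replicate 2 (downwards), with the maximum as their height. The peak in Hoxd3 shows the replicate 2 interval inside that of replicate 1, whereas the pair beyond Hoxa13 meets over 9 bp only.

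Of the 14 Hox genes counted at a start site or gene end, 12 were counted in 1 replicate. A gene was counted when its start site had an interval within 1 kb on either side, with either end of the gene standing in for 16 genes whose start site was not in the promoter table. In replicate 1, 7 of 38 genes were counted (18.4%, Wilson interval 9.22 to 33.4), against 35.1% of all protein-coding genes. In replicate 2, 9 were counted (23.7%, 13.0 to 39.2), against 33.6%. In at least 1 replicate 14 were counted (36.8%, Wilson interval 23.4 to 52.7), against 51.8%. In both replicates 2 were counted (5.26%, 1.46 to 17.3), against 16.9%. Of the 22 genes with a known start site 8 were counted in at least 1 replicate (36.4%, 19.7 to 57.0), against 50.3% of such genes, and of the other 16 genes 6 were counted, against 57.7% of genes read at either end. The genome share lay above the interval for replicate 1 and within those for replicate 2, for at least 1 replicate, for both, and for known start sites, and none of these differences was tested.

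Among the genes of paralogue groups 1 to 3, which pattern the hindbrain, 4 of 7 had an interval at the start site or a gene end. Each was counted in 1 replicate and 0 in both. The 4 made up 57.1% (Wilson interval 25.0 to 84.2), against 51.8% of protein-coding genes in at least 1 replicate and 16.9% in both. Hoxb1, which specifies a single hindbrain segment, had an interval of maximum 19 in replicate 1, 215 bp from its start, while the nearest in replicate 2 was 24556 bp away. Hoxb2 had one of maximum 19 in replicate 1, 604 bp from a gene end, and the nearest in replicate 2 was 10430 bp away. That is the higher-coordinate end, which would not be the start if Hoxb2 shares the plus strand of Hoxb1, Hoxb4 and Hoxb8. Hoxa2, which patterns the second pharyngeal arch, had an interval of maximum 2 in replicate 2, 913 bp from its start. Hoxa3, needed for the thymus and parathyroid, had one of maximum 23 in replicate 2, 528 bp from its start. Within its span of 44009 bp, Hoxa3 held 5 intervals in each replicate, with highest maxima of 12 and 23, and none of them overlapped the other replicate. The genes without an interval at the start site or a gene end read in its place were Hoxb3, Hoxd1 and Hoxd3.

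Among the trunk genes of groups 4 to 8, 4 of 15 had an interval at the start or a gene end in at least 1 replicate. This was 26.7% (Wilson interval 10.9 to 52.0), against 51.8% of protein-coding genes. Hoxb5, which acts in the neck and shoulder region, had one in each replicate, with a maximum of 20 in replicate 1 and 14 in replicate 2. They lay at opposite ends of the gene, at chr11:96305647-96305963 and chr11:96303472-96303773, so only 1 of the pair can be at the start site. If Hoxb5 shares the plus strand of Hoxb1, Hoxb4 and Hoxb8, that is the interval of replicate 2. Hoxb6 had an interval of maximum 9 across a gene end in replicate 1, and Hoxb4 one of maximum 10 at 418 bp from its start in replicate 1. Hoxc5 had one of maximum 6 in replicate 2, 738 bp from a gene end. The other 11 genes had none. Among them was Hoxa5, a gene of lung and trunk development whose promoter is printed above, with its nearest intervals at 5547 bp and 7707 bp. Hoxc4 and Hoxd8 had none within 15 kb of their start sites in the promoter table in either replicate. The RefSeq span of Hoxc4 begins farther upstream, at chr15:103018097, and the replicate 2 interval counted for Hoxc5 lay near that end, at chr15:103016165-103016691.

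Among the genes of groups 9 to 13, which act in the lower trunk, limbs and tail, 6 of 16 had an interval at the start or a gene end. This count is for at least 1 replicate (37.5%, Wilson interval 18.5 to 61.4), against 51.8% of protein-coding genes. Hoxa10, which patterns the lumbar region and the uterus, had a maximum of 25 in replicate 1, at 222 bp from its upstream start, and a maximum of 19 in replicate 2, at 950 bp from its downstream start. The replicates thus marked different starts of Hoxa10, and neither interval touched the promoter windows printed above. Hoxa9 had 2 intervals at its start in replicate 2, the one on the promoter and one of maximum 1, and its nearest interval in replicate 1 was 1635 bp away. Hoxa13 had a maximum of 25 in replicate 2, at 556 bp from its start and at percentile 97.3 of the list by total signal, and in replicate 1 the nearest was 1109 bp away, just outside the window. Hoxb13 and Hoxc13 had intervals of maximum 5 and 21 in replicate 2, at 68 bp and 93 bp from a gene end. Hoxd11 had 2 in replicate 1, with maxima of 13 and 9, and the nearer of them was 545 bp from a start. The other 10 genes had none. Of the 9 HoxD genes, Hoxd11 alone was counted.

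**Figure D4:**
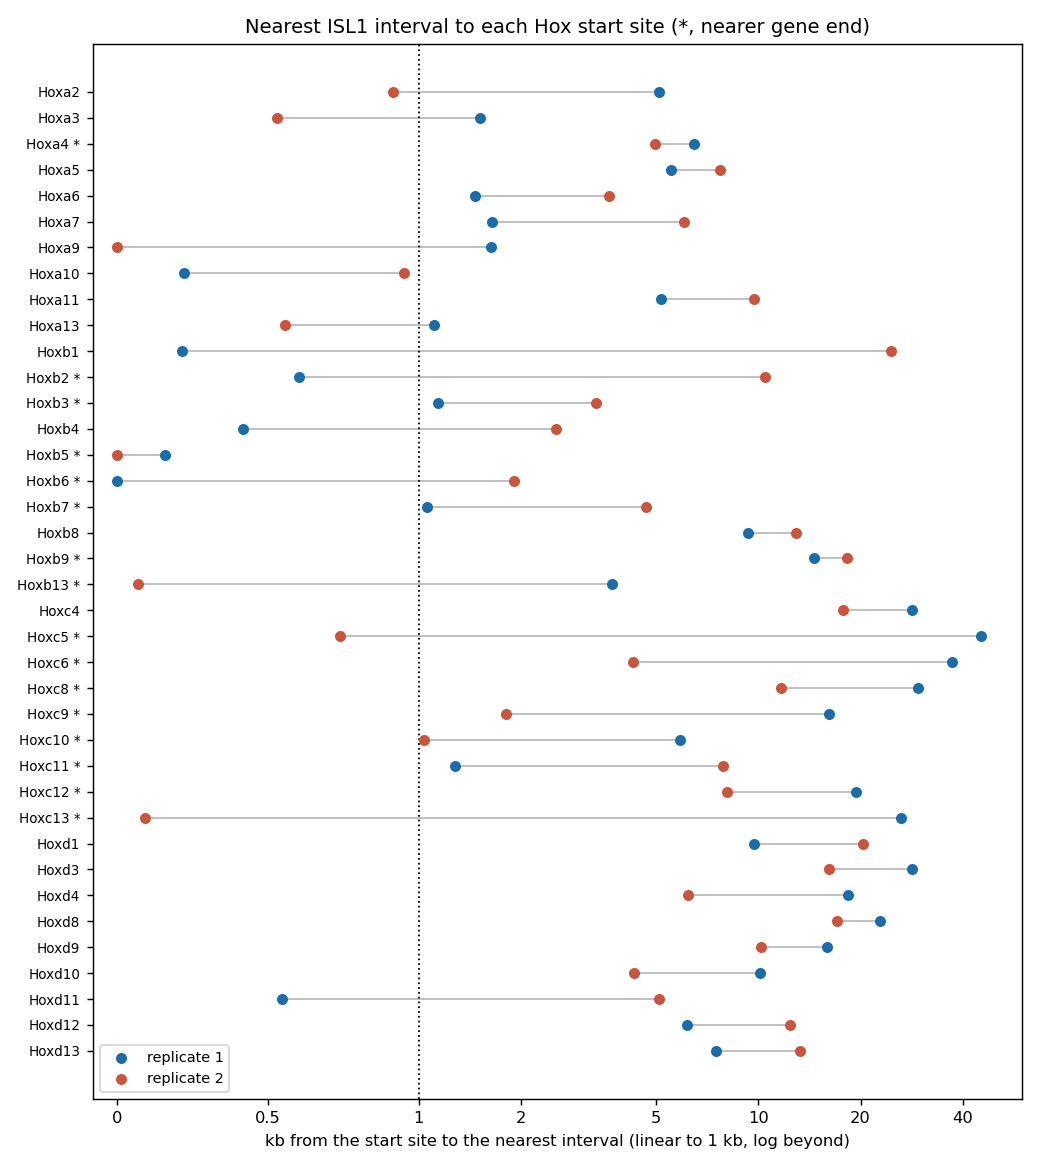
Distance in kb (horizontal axis, linear to 1 kb and logarithmic beyond) from the start site of each of the 38 Hox genes to the nearest interval in replicate 1 and in replicate 2, joined by a line. Genes with an asterisk were measured from the nearer gene end, and the dotted line marks 1 kb. Both points lie within 1 kb for Hoxa10 and Hoxb5 only.

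The median distance from a start site to the nearest interval was 5721 bp in replicate 1 and 5029 bp in replicate 2. For the HoxC genes the median was 26399 bp in replicate 1, from 1275 bp for Hoxc11 to 45253 bp for Hoxc5, and 4283 bp in replicate 2. Over gene spans, 19 of 38 genes held an interval in at least 1 replicate. Restricted to the 35 genes of 20 kb or less, 16 did (45.7%), against 58.9% of protein-coding genes of that size.

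The intervals of highest signal lay both within Hox genes and between them. Distances are from the midpoint of an interval to the nearest end of a Hox gene. In replicate 1 the highest, with a maximum of 34, was at chr15:102957976-102958201, 1387 bp from an end of Hoxc11. The next, with 27, was at chr2:74753024-74753248, 4865 bp from Hoxd3 and within the non-coding gene Haglr. Those with 26 and 25 were near Hoxa13, at 1107 bp, and inside Hoxa10, and one with 24 was in the flank of HoxC, 26506 bp from Hoxc13. In replicate 2 the highest, with 29, was in the flank of HoxD at chr2:74783283-74783455, 18227 bp from Hoxd1. Maxima of 25 followed inside Hoxa13, inside Hoxd3 and 2065 bp from Hoxc10. Maxima of 23 were found at 2 places inside Hoxa3 and once inside Hoxd10, there 496 bp from the end of Hoxd11. By total signal the strongest of replicate 2, at percentile 98.2, lay over Evx2, the homeobox gene beside Hoxd13, at chr2:74654403-74654924, 13562 bp from Hoxd13. It was followed by those inside Hoxd3, Hoxa13 and Hoxc13 and the one beside Hoxc10. In replicate 1 the strongest by total signal, at percentile 92.8, lay 26089 bp beyond Hoxc4. It was followed by the interval beside Hoxc11, by one 38683 bp from Hoxd13, by one 1861 bp from Hoxa7, and by one 44810 bp from Hoxd13. Among all of these, that inside Hoxd3 alone overlapped an interval of the other replicate.

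The Irx and Dlx regions, which hold other clustered homeobox genes and were bounded in the same way, gave values for comparison. The 2 Irx clusters had 6.14 intervals per 100 kb (5.19 to 7.22) in replicate 1 and 5.93 (5.00 to 6.99) in replicate 2. The 3 Dlx pairs had 8.25 (5.57 to 11.8) and 7.98 (5.34 to 11.5). Shared intervals made up 10.2% and 10.6% of the Irx intervals and 0 of 30 and 0 of 29 of the Dlx intervals. Uneven intervals made up 7.48% and 8.45% of the Irx intervals, and 3.33% and 13.8% of the Dlx intervals. Intervals above percentile 99 of their list by total signal numbered 2 of 147 and 6 of 142 in the Irx clusters. They numbered 1 of 30 and 1 of 29 in the Dlx pairs, and 0 of 48 and 0 of 49 in the Hox regions. The counting intervals of density overlapped between Hox, Irx and Dlx regions, and these differences were not tested.

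Genes that work with Hox proteins were read in the same way, at their start sites or, where none was known, at either gene end. Of 9 TALE cofactor genes, 6 had an interval at the start in both replicates, among them Meis2, Meis3 and Pbx3, and 7 of 9 were nearest to a shared peak within 50 kb. Pbx3, for example, had a shared peak with maxima of 25 and 42 at 651 bp from a gene end, and Meis2 one with 26 and 36 at 3243 bp. Meis1 had no interval at the start and was nearest to 8 shared peaks, of which the best had 22 and 21. Among 19 Polycomb group genes, whose products keep Hox genes silent, 9 had an interval in both replicates, among them Eed and Suz12, core subunits of the methyltransferase complex PRC2, and 6 were nearest to a shared peak. Of these, Cbx8 had one with maxima of 39 and 46. Of 14 genes of retinoic acid signalling, which sets Hox expression in the hindbrain, 2 had an interval in both replicates, Rara and Rxra, and 7 were nearest to a shared peak. Of 5 Cdx and Evx genes, homeobox genes that act with or beside the clusters, 0 had an interval in both replicates and 0 were nearest to a shared peak. Each count stands beside the genome shares of 16.9% for both replicates and 27.3% for shared peaks. The loci are of unlike size, and Meis2, for instance, spans chr2:115861264-116067537, so these counts are descriptions only.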

How the data were processed

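ISL1 CUT&Tag was read from 1 deposited peak list per sample (2 samples, 1 group, replicates from the titles). FastQC, Bowtie2, MACS2, SEACR and the build mm10 appear in the submitters' processing notes, without versions or roles. The lists have 6 columns and no header. Columns 4 and 5 hold the total and maximum signal as deposited by the authors, in whole-number coverage with no scaling apparent. Which caller, threshold and control were used, and whether duplicates were removed, is not stated in these sources. Read depth being unknown, signal was used within a list only. With duplicates kept, signal rises with PCR copies of a fragment.

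Only chromosomes 1 to 19, X and Y were used and coordinates are 1-based. Genome density used 2722 Mb, from the first base to the last feature of each chromosome, assembly gaps included. Genes came from RefSeq GRCm38.p6, and all 38 symbols matched. Start sites came from the RefSeq promoter table, which held 22 of them. It did not hold Hoxa4, Hoxb2, Hoxb3, Hoxb5, Hoxb6, Hoxb7, Hoxb9, Hoxb13, Hoxc5, Hoxc6, Hoxc8, Hoxc9, Hoxc10, Hoxc11, Hoxc12 or Hoxc13. Counts carry exact 95% Poisson and shares 95% Wilson intervals (SciPy 1.17.1, statsmodels 0.14.6, Python 3.11.15). With 1 group there was no test. Overlap code, tested on simulated data, recovered 150 of 150 planted overlaps. Members, gene lists and rules were chosen with earlier results of these data known. Every Hox gene was counted. By rule those named had an interval at the start, or at a gene end where no start site was known, in both replicates. Also named by rule were those nearest to a shared peak, or to one of the 5 intervals of highest maximum or total signal in a replicate. Other Hox genes named were chosen after their values were seen. Of the other lists, the genes named are examples with intervals at the start in both replicates or a shared peak, and 1 item is not reported here. Alternatives were other flanks, windows, thresholds and definitions of overlap and unevenness, and each replicate alone.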

Additional observations from a re-analysis of the deposited data

How the results depend on the processing

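Across 65 recomputed values of 10 results, 40 stayed within 1.5 times of the count, 1 SD of the replicates or the Wilson interval of the value reported, and 25 did not. The mean of 48.5 intervals per replicate became 28.5 without flanks, 73.5 with 100 kb flanks and 31 in the stronger 50% of each list, and was 48 to 49 with single replicates. The density ratio to the genome of 1.07 rose to 1.32 with a maximum of 5 or more and to 1.36 in the stronger 50%, and ranged from 0.949 to 1.19 with single replicates. The ratio of bodies to flanks ranged from 0.932 to 1.5 with single replicates. The 4 shared peaks became 2 without flanks, with a maximum of 5 or more, in the stronger 50%, with a reciprocal overlap of 50%, or without intervals of maximum 1, an alternative added after seeing the data. Those left by reciprocal overlap included the one within Ttll6 in place of that inside Hoxb3. The 3 uneven intervals became 1 without flanks, with a maximum of 5 or more and in the stronger 50%, and were 0 to 3 with single replicates, since replicate 1 had none. The 14 genes counted at a start site or gene end became 21 with a window of 2 kb (62.4% of all genes there) and 13 with a maximum of 5 or more (46.4%). The count was 9 in the stronger 50% (40.8%), 8 with a window of 0.5 kb (43.6%), and 7 to 9 with single replicates. It was 8 when only genes in the promoter table were used. With the strand of cluster neighbours taken for genes outside that table, 10 were counted, so some of the 14 had an interval only at the other gene end. The 2 genes with intervals in both replicates became 1 with a window of 0.5 kb (12.5% of all genes), 6 with 2 kb (23.6%), 1 with the promoter table alone and 1 with the strand of cluster neighbours. These last 2 settings were also added after seeing the data, as were those for promoters. The 1 promoter overlapped became 0 in the stronger 50% (18.6% of all windows), and was 0 to 1 with single replicates. Without read depth, intervals missed in 1 replicate cannot be told from intervals absent there. No paired analysis was possible because the series has 1 group.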

Other observations

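MicroRNA genes are also embedded in the Hox clusters, among them those of the miR-10 and miR-196 families, which can target Hox transcripts. The RefSeq table held 5 microRNA hairpins within the regions, and 0 of them were overlapped by an interval in either replicate. The share over hairpins elsewhere was not computed. Intervals covered only 1.91% of the Hox bases (mean of the replicates), so 0 of 5 short hairpins cannot show a difference from elsewhere. Among these 5, the closest interval was 1411 bp from a hairpin, and the hairpin farthest from any interval was 25953 bp away. For Mir615, in HoxC, only the mature sequences were listed, and an interval of replicate 2 lay closer, at 1175 bp from the nearer of them. The long non-coding RNA gene Hottip, which lies beside Hoxa13, was overlapped by 1 interval, in replicate 1, with a maximum signal of 1. Evx2, beside Hoxd13, was overlapped by 3 intervals, with maxima of 15 and 9 in replicate 1 and 20 in replicate 2, none of which overlapped between replicates.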
